A study of Mus musculus with 6 samples.

Results

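Genes that make, move and restrain bone mineral were examined in Cxcl12-abundant reticular (CAR) cells, a stromal population of the bone marrow. The set held 10 genes chosen by name: Alpl, Phospho1, Smpd3, Enpp1, Ank, Slc20a1, Slc20a2, Phex, Fam20c and Mgp. Of these, 9 had a probe set naming that gene only, 8 were bright enough to be tested among 13292 genes, Phospho1 was dim, and Enpp1 was not analysed here. Enpp1 encodes the ectoenzyme that releases pyrophosphate from nucleotides, so the source of pyrophosphate is covered below only through Ank and relatives of Enpp1.

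The first population was CAR cells targeted by Dmp1-Cre, a Cre transgene under regulatory sequence of the late osteoblast and osteocyte gene Dmp1, and it was compared with CAR cells that the Cre had not targeted. Each population was measured on 3 arrays, given as biological replicates. All cells came from femur and tibia marrow of C57BL/6 mice 7 weeks old with the genotype Dmp1-Cre Cxcl12-gfp/+, so both populations carried the Cre and 1 Cxcl12 allele bearing the green fluorescent protein sequence. Cells of a single mouse made up each sample. Per the series' design text both populations came from 3 mice, so a targeted and a non-targeted array may share a mouse, but the labels do not say which would, and the fit took the 6 arrays as independent. The marker by which targeted cells were told apart in the sort is not given in the sources used here.

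Mineral forms when phosphate is set free near the collagen matrix and when inhibitors of crystal growth are removed. Alkaline phosphatase degrades pyrophosphate, a small inhibitor of crystal growth, while phosphatases and lipases inside matrix vesicles release phosphate from membrane lipids. Transporters carry phosphate into the cell, Golgi kinases phosphorylate the secreted matrix proteins, and proteins such as matrix Gla protein hold calcification back.

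Values are log2 of the RMA intensity of a gene's brightest probe set, differences are targeted minus non-targeted cells, SDs are over 3 arrays, and adjusted p-values are from limma over all 13292 genes. The median intensity of the arrays ran from 79.4 to 87.5 on the linear scale, and array pairs correlated at 0.955 to 0.981 across genes. All 10 CAR cell markers examined were well above the cut for dim genes, with a mean log2 level of 11.12 to 11.49 on targeted and 11.40 to 11.76 on non-targeted arrays. Of these markers 10 of 10 were lower in targeted cells, with a median difference of -0.29, where 48.89% of all genes tested were higher. Only 2 of them, Lepr and Grem1, lay wholly below, against 5.76% of all genes tested. Without targeted replicate 2, or without non-targeted replicate 2, 9 were lower. Neutrophil markers were low on 1 array, and their mean level over 13 genes was 6.27, 7.71 and 8.18 on targeted replicates 1 to 3 and 7.87 to 8.42 on non-targeted arrays. Osteoblast markers were highest on the same array. Their mean over 8 genes was 11.03, 10.12 and 10.32 on targeted replicates 1 to 3 and 9.82, 9.997 and 9.81 on non-targeted replicates 1 to 3. Of these, 8 of 8 were higher in targeted cells, with a median difference of 0.55, where 48.89% of all genes tested were higher. Without targeted replicate 1, 7 osteoblast markers were higher and the median was 0.26. Without non-targeted replicate 1, 7 were higher as well. Another 4 listed osteoblast markers were not analysed here. The mean of 10 endothelial markers was 5.99 to 6.26 on targeted and 6.01 to 6.26 on non-targeted arrays, and that of 10 macrophage markers 6.59 to 6.85 and 6.63 to 6.93. Among them 4 endothelial and 3 macrophage markers were dim. Means did not overlap for 11 B and plasma cell markers, at 6.98 to 7.15 on targeted and 7.18 to 7.38 on non-targeted arrays. The same held for 8 osteoclast markers, at 6.27 to 6.36 on targeted and 6.08 to 6.21 on non-targeted arrays, near the cut for dim genes. Of the 5 tested osteoclast markers 4 were higher and 1 lower, with a median of 0.12. None of them separated the populations, and 3 more were dim. Of the 8 tested B and plasma cell markers 2 were higher and 6 lower, with a median of -0.10. Vpreb1 differed most, by -1.54, and 3 more of the list were dim. The part of any of these markers in the results below was not tested.

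Alpl, the tissue-nonspecific alkaline phosphatase, was the member with the largest difference, and it was the only 1 of the 8 tested members whose arrays separated the populations. It was at 11.76, 10.63 and 11.06 on the targeted arrays, against 10.42, 9.95 and 9.74 on the non-targeted arrays. Every targeted array lay above every non-targeted array, though the gap between targeted replicate 2 and non-targeted replicate 1 was smaller than the range within either group. Targeted cells averaged 11.15 ± 0.57 and non-targeted cells 10.04 ± 0.35 (SD, n = 3 each). The ratio was 2.16-fold, with a log2 difference of 1.11 ± 0.31 (SE) and a 95% interval of 0.40 to 1.83. The adjusted p was 0.824, so the gene did not pass over all genes, and without targeted replicate 1 the log2 difference was 0.81. Of all genes tested, 0.00% had an adjusted p under 0.05, the targeted arrays lay wholly above for 3.32% and wholly below for 5.76%, and 9.07% did not overlap in either direction.

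The array reads Alpl with a single probe set, whereas RefSeq lists 2 transcription starts for the gene, so transcripts from these starts could not be told apart. The 250 bases before each start are shown because Alpl is the member that differed most. They are from RefSeq on GRCm38.p6, minus strand, at chr4:137796385-137796634 for the upstream start and chr4:137766476-137766725 for the start 29909 bases further into the gene. Capitals mark the GC box GGGCGG in the first window, and AGGTCA, a half-site of nuclear receptors, and TATAAA in the second, each searched on both strands.
Alpl upstream start: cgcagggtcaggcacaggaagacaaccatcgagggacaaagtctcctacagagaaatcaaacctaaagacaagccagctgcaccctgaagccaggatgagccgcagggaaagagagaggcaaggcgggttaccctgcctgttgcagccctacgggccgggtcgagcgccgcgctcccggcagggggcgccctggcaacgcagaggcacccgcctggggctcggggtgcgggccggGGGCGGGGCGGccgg
Alpl downstream start: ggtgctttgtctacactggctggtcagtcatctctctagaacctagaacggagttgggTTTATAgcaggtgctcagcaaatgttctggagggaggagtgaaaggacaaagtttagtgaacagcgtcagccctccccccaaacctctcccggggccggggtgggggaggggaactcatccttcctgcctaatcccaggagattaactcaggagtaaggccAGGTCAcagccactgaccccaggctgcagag
The first window held GGGCGG at 15 and 10 bases before the start, overlapping by 1 base, and neither of the other motifs. In the second, AGGTCA began 31 bases before the start and TATAAA, read as TTTATA on the opposite strand, 192 bases before it, with no GGGCGG. Among 32851 such windows of the genome, 32.74% held GGGCGG, 14.02% AGGTCA and 12.37% TATAAA. These letters describe the windows and were not tied to the difference in Alpl.

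**Figure D1:**
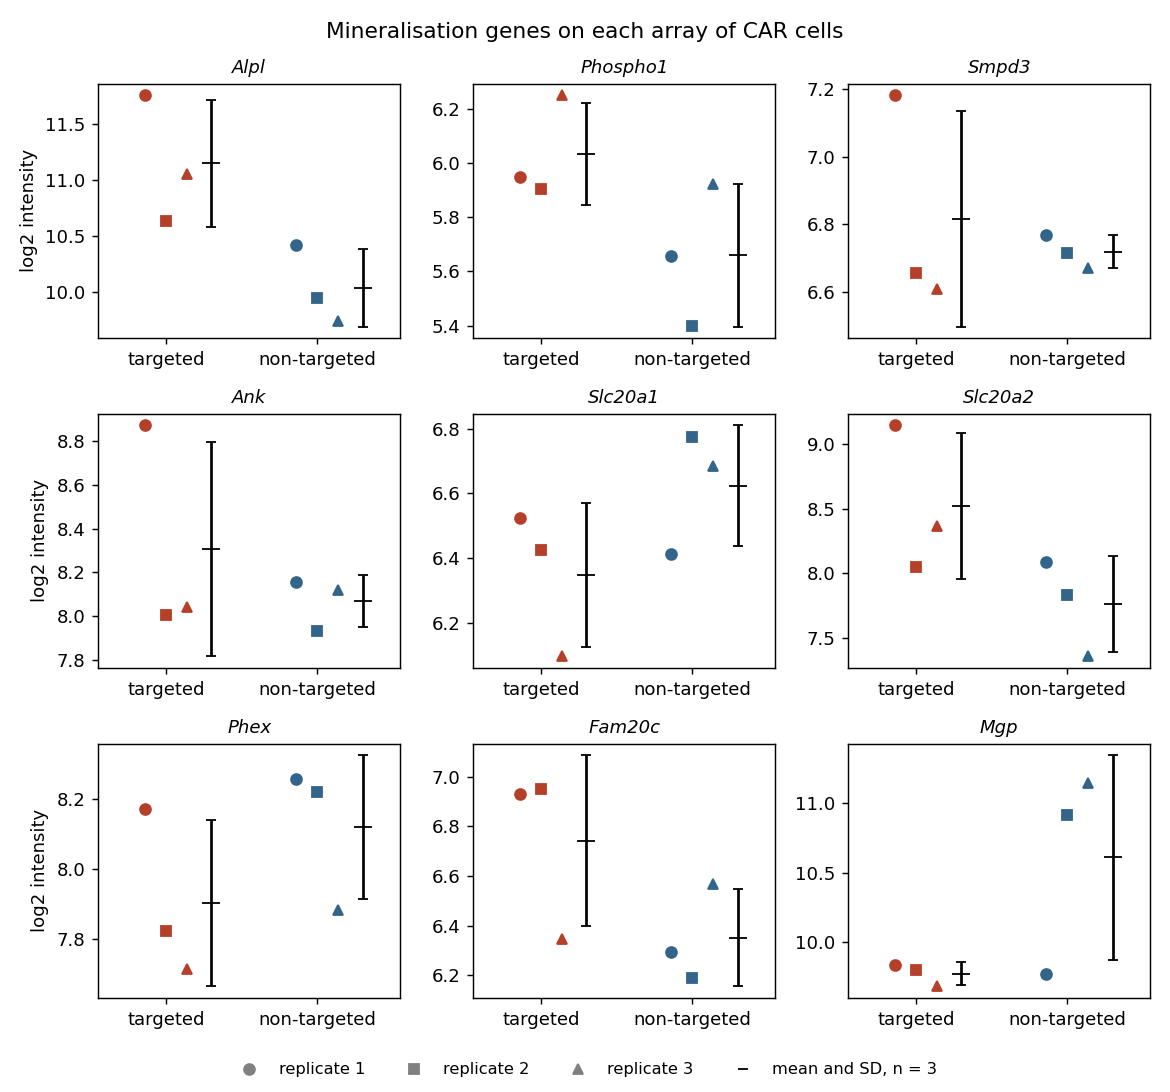
Log2 intensity (vertical axes, each with its own range) of the 9 mineralisation genes with a value, on the 3 targeted and 3 non-targeted arrays, with symbols for replicates and bars for mean and SD. Alpl separates the populations, Smpd3 and Ank stand out on targeted replicate 1, at 7.18 and 8.87, and Mgp is near 9.8 on every targeted array and on 1 non-targeted array.

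The phosphate-releasing enzymes of matrix vesicles were low or alike in the populations. Phospho1, a phosphatase that frees phosphate from phosphocholine and phosphoethanolamine, was at 5.95, 5.90 and 6.25 on targeted and 5.66, 5.40 and 5.92 on non-targeted arrays. Its mean over all arrays fell under the cut for dim genes of 6.00, and only targeted replicate 2 and non-targeted replicate 3 overlapped, so it is given as values with no test. Smpd3, a neutral sphingomyelinase that makes phosphocholine from sphingomyelin, was at 7.18, 6.66 and 6.61 on targeted and 6.77, 6.72 and 6.67 on non-targeted arrays. Only targeted replicate 1 stood above the rest. The difference was 0.10 (95% interval -0.34 to 0.53, adjusted p = 0.9998), and without targeted replicate 1 it was -0.09.

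Ank, a membrane protein through which cells supply pyrophosphate to their surroundings, had the same pattern. It was at 8.87, 8.01 and 8.04 on targeted arrays, against 8.16, 7.94 and 8.12 on non-targeted arrays. Targeted replicate 1 lay above the other 5 arrays, which ran from 7.94 to 8.16, and targeted replicates 2 and 3 fell inside the non-targeted range. The difference was 0.24 (95% interval -0.34 to 0.81) over all arrays and -0.05 without targeted replicate 1, and it did not pass (limma adjusted p = 0.9998).

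The sodium-phosphate cotransporters differed in opposite directions without passing. Slc20a2, which encodes PiT-2, was at 9.15, 8.05 and 8.36 on targeted arrays, against 8.09, 7.83 and 7.36 on non-targeted arrays. The populations overlapped at 1 place, where targeted replicate 2 was just below non-targeted replicate 1. Targeted cells averaged 8.52 ± 0.57 and non-targeted cells 7.76 ± 0.37 (SD, n = 3 each), 1.69-fold higher in targeted cells (log2 difference 0.76, 95% interval 0.04 to 1.48, limma adjusted p = 0.9998), and without targeted replicate 1 the log2 difference was 0.45.

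Slc20a1, which encodes the related transporter PiT-1, was at 6.52, 6.42 and 6.10 on targeted arrays, against 6.41, 6.77 and 6.68 on non-targeted arrays. Targeted replicate 3 was the lowest array and non-targeted replicate 1 lay among the targeted ones. The log2 difference was -0.28 (95% interval -0.69 to 0.14). Within an array, Slc20a2 minus Slc20a1 was 2.62, 1.63 and 2.27 in targeted cells, against 1.67, 1.06 and 0.67 in non-targeted cells. This within-array difference moved by 1.04 between the populations (two-sided exact permutation test, p = 0.200, where 0.1 is the smallest p that 3 arrays against 3 allow), and this test did not show unequal change of the transporters.

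Phex and Fam20c, whose human homologues are mutated in hereditary bone disorders, showed small differences. Phex, a membrane endopeptidase of osteoblasts and osteocytes whose loss raises Fgf23, was at 8.17, 7.82 and 7.71 on targeted and 8.26, 8.22 and 7.88 on non-targeted arrays. Its difference was -0.22 (95% interval -0.65 to 0.22), and the populations overlapped. Fam20c, the Golgi kinase of secreted phosphoproteins, was at 6.93, 6.95 and 6.34 on targeted and 6.29, 6.19 and 6.57 on non-targeted arrays. Targeted replicates 1 and 2 lay above all other arrays, while replicate 3 fell among the non-targeted ones. Its difference was 0.39 (95% interval -0.10 to 0.88), and neither gene passed (limma adjusted p = 0.9998 each).

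Mgp, matrix Gla protein, an inhibitor of calcification in vessels and cartilage that is also made by fat-forming stroma, was the member that lay furthest below. It was at 9.84, 9.80 and 9.69 on targeted arrays, against 9.77, 10.92 and 11.14 on non-targeted arrays. The targeted arrays lay close together, and the non-targeted ones were spread, with replicate 1 at the targeted level and replicates 2 and 3 above it. Targeted cells averaged 9.78 ± 0.08 and non-targeted cells 10.61 ± 0.73 (SD, n = 3 each), a log2 difference of -0.83 (95% interval -1.61 to -0.06, limma adjusted p = 0.9998). Without non-targeted replicate 1 it was -1.25, and without non-targeted replicate 3 it was -0.57.

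**Figure D2:**
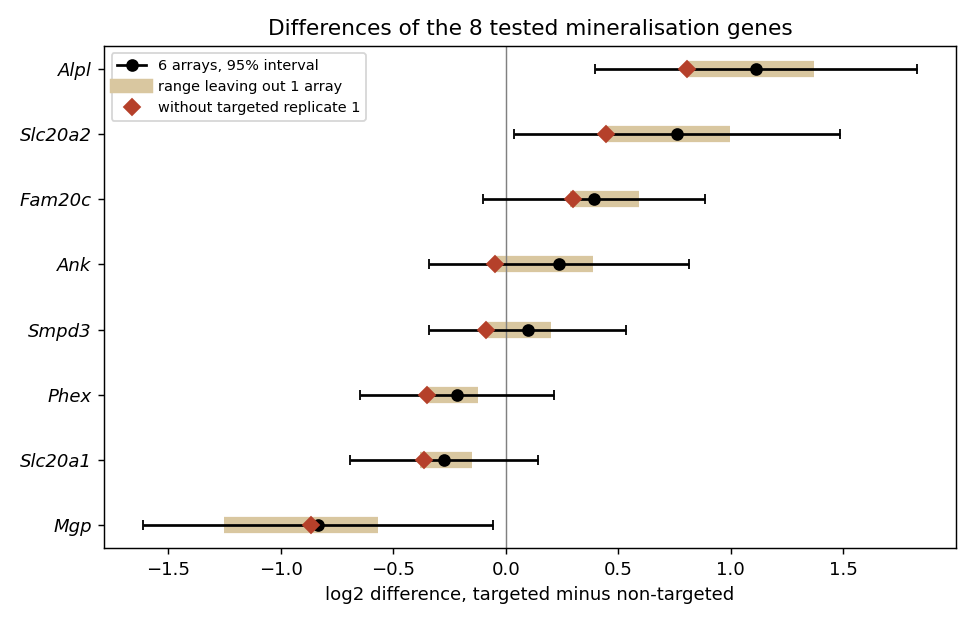
Log2 difference, targeted minus non-targeted (horizontal axis), of the 8 tested genes (rows), with points and bars for the estimate and its unadjusted 95% interval over 6 arrays, bands for the range when 1 array is left out, and diamonds for the value without targeted replicate 1. Alpl at 1.11 and Slc20a2 at 0.76 lie highest and Mgp at -0.83 lowest, and the diamonds of Ank and Smpd3 lie below 0.

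Of the 8 tested members, 5 were higher and 3 lower in targeted cells, with a median difference of 0.17, while over all genes 48.89% were higher and the median was -0.0051. The unadjusted p was under 0.05 for Alpl, Slc20a2 and Mgp, 3 of 8, against 4.77% of all genes tested (1.35% higher and 3.42% lower in targeted cells), and 0 members passed after adjustment. The genes had been chosen with results of these arrays known, so this share supports nothing. Without targeted replicate 1 the split of the members turned, to 3 higher and 5 lower with a median of -0.07, against a median of 0.0066 over all genes, and only Alpl kept an unadjusted 95% interval that left out 0. Targeted replicate 1 was the highest array for 4 of the 9 genes with a value, namely Alpl, Smpd3, Ank and Slc20a2, and for 16.81% of all genes tested. The mean over the 9 genes was 8.26, 7.81 and 7.80 on targeted replicates 1 to 3 and 7.76 to 7.79 on non-targeted arrays. In such sorted populations, fewer cells that express a gene and less RNA per cell cannot be told apart.

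Relatives of the members from 8 lists were then examined, 75 genes in all, of which 56 were tested. Of these, 30 were higher and 26 lower, with a median difference of 0.0056, and 0 passed (limma, adjusted over all genes). All targeted arrays lay above all non-targeted arrays for 6 of them, Chka, Dmp1, Entpd3, Sgms1, Sgms2 and Vdr, and below for 1, Enpp4, where the shares over all genes were 3.32% and 5.76%. The lists had been chosen with earlier results of these data known, so these counts support nothing. When single arrays were left out, the difference changed sign at least once for 25 of the 56, among them Ahsg, Anxa1, Anxa5, Ecel1, Fam20a, Fam20b, Ggcx, Ibsp, Smpd1, Smpd2 and Ucma, so no direction is read from these below.

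The sphingomyelin and phosphocholine list supplies the substrates of Smpd3 and Phospho1, and 3 of its 11 tested members lay wholly above in targeted cells, against 3.32% of all genes. This list too was chosen with earlier results known, so the share supports nothing. The sphingomyelin synthase gene Sgms2, whose human homologue is mutated in a skeletal fragility disorder, was at 9.12, 7.99 and 7.95 on targeted arrays, against 7.40, 7.55 and 7.37 on non-targeted arrays. All targeted arrays were above, with replicate 1 well over the other two. The log2 difference was 0.91 (95% interval 0.19 to 1.63, limma adjusted p = 0.947), or 1.88-fold, and it was 0.53 without targeted replicate 1.

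The other synthase gene, Sgms1, was at 7.97, 7.99 and 8.37 on targeted arrays, against 7.05, 7.63 and 7.62 on non-targeted arrays. Here targeted replicate 1 was the lowest of its group, and the populations also separated without that array. The log2 difference was 0.68 (95% interval 0.18 to 1.17, limma adjusted p = 0.931), and 0.49 to 0.77 when any 1 array was left out. Chka, the choline kinase that makes phosphocholine, was at 7.58, 6.62 and 6.76 against 6.54, 6.41 and 6.61, so targeted replicate 2 barely cleared non-targeted replicate 3. Its difference was 0.47 (95% interval -0.13 to 1.07), and 0.17 without targeted replicate 1. The remaining members of the list differed by -0.24 to 0.03, among them the related sphingomyelinases Smpd4 at -0.22, Smpd1 at -0.16 and Smpd2 at -0.04. The list held 5 higher and 6 lower genes with a median of -0.04, or 8 higher and 3 lower without non-targeted replicate 2.

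Enpp6 was high on a single array. Its product is a choline-specific phosphodiesterase that yields phosphocholine. The gene was at 8.07, 4.58 and 4.83 on targeted arrays and at 5.01, 4.66 and 4.64 on non-targeted arrays. It was dim by its mean over all arrays and was not tested, and every array but targeted replicate 1 lay at or below 5.01.

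**Figure D3:**
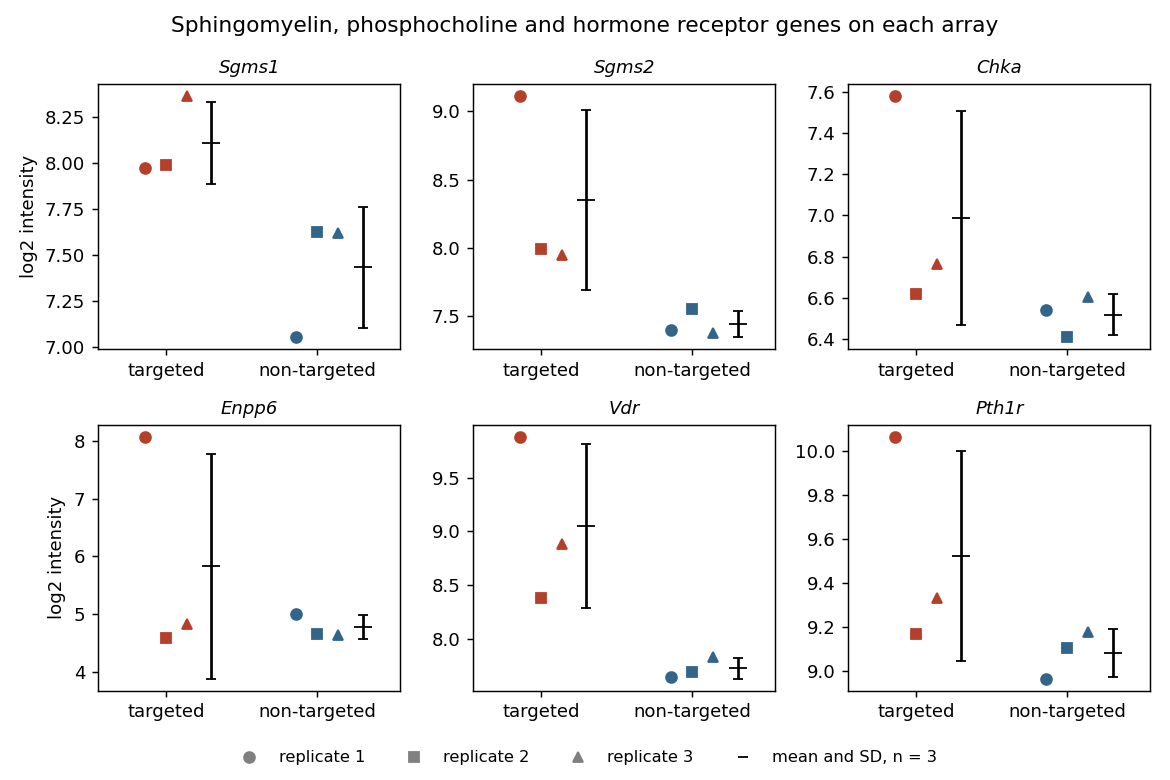
Log2 intensity (vertical axes, each with its own range) of 6 genes related to the members on the 3 targeted and 3 non-targeted arrays, with symbols for replicates and bars for mean and SD. Sgms1, Sgms2, Chka and Vdr lie higher on every targeted array, while Enpp6 is high on targeted replicate 1 alone, at 8.07, and Pth1r is highest there.

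Among genes of phosphate transport and its hormonal control, Vdr, the vitamin D receptor, had the largest difference. It was at 9.88, 8.38 and 8.88 on targeted arrays, against 7.65, 7.70 and 7.83 on non-targeted arrays. The lowest targeted array was above the highest non-targeted one by more than the whole non-targeted range. The log2 difference was 1.32 (95% interval 0.52 to 2.13, limma adjusted p = 0.771), or 2.50-fold, and 0.91 to 1.66 when any 1 array was left out. Pth1r, the parathyroid hormone receptor, was at 10.06, 9.17 and 9.33 against 8.97, 9.11 and 9.18, overlapping at a single place, and differed by 0.44, or by 0.17 without targeted replicate 1. Xpr1, the phosphate exporter, differed by -0.26 and Fgfr1, a receptor of Fgf23, by 0.28, and both overlapped. Of the 7 tested genes of this list 5 were higher and 2 lower.

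Genes of pyrophosphate and nucleotide metabolism held 4 higher and 7 lower of 11 tested, with a median of -0.10, but 6 higher and 5 lower, with a median of 0.02, without targeted replicate 1. The inorganic pyrophosphatase of mitochondria, Ppa2, was at 7.90, 6.91 and 6.97 on targeted arrays, against 7.65, 8.42 and 7.94 on non-targeted arrays, and targeted replicate 1 fell inside the non-targeted range. It differed by -0.74 (95% interval -1.47 to -0.02, limma adjusted p = 0.9998). Of the relatives of Enpp1, Enpp3 was at 9.26, 8.73 and 7.78 against 9.15, 9.38 and 9.63, a difference of -0.80 (95% interval -1.62 to 0.02), or -0.39 without targeted replicate 3. Enpp4 was at 10.27, 10.21 and 10.21 against 10.63, 10.57 and 10.43, the 1 gene of the lists with all targeted arrays below, though its difference was only -0.31 (95% interval -0.64 to 0.01). Entpd3, an ectonucleotidase, was at 6.47, 6.26 and 6.34 against 6.12, 6.07 and 6.12, near the dim range, and differed by 0.25.

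**Figure D4:**
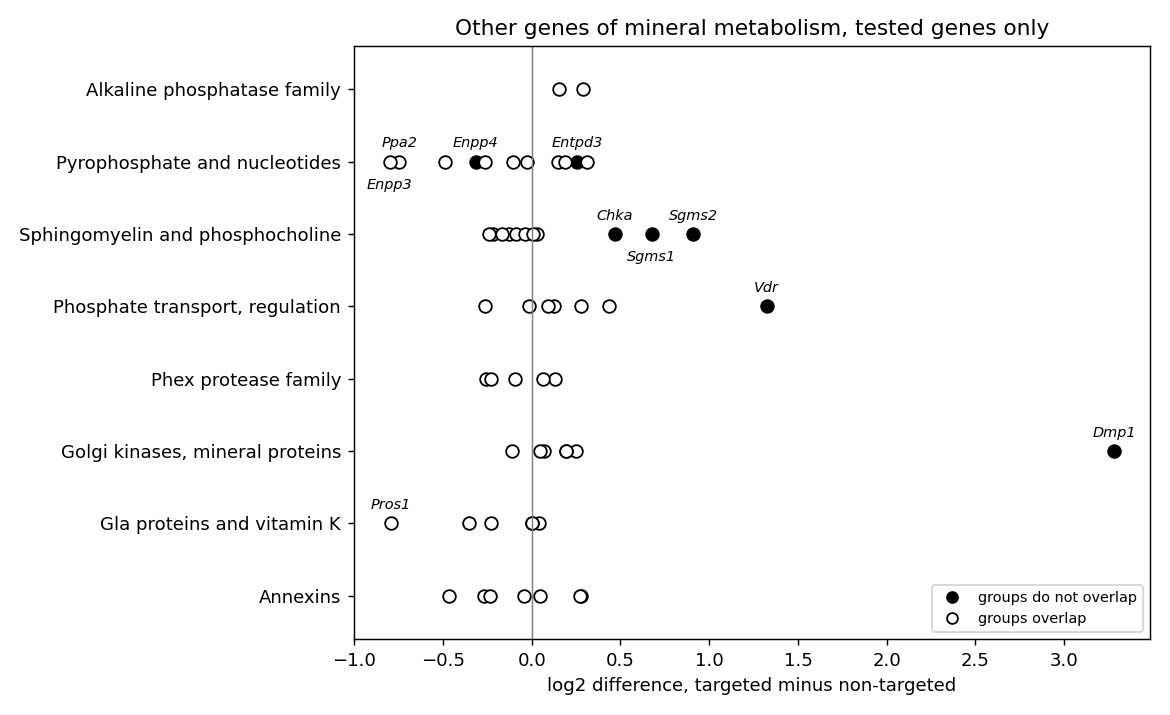
Log2 difference, targeted minus non-targeted (horizontal axis), of the tested genes in 8 lists related to the members (rows), 1 circle per gene, filled where the arrays of the populations do not overlap. Filled circles to the right include Dmp1 at 3.28, Vdr at 1.32, Sgms2 at 0.91 and Sgms1 at 0.68, and Enpp4 at -0.31 is the filled circle to the left.

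The tested genes of Golgi kinases and mineral proteins overlapped between the populations apart from Dmp1. Another 4 listed genes, Spp1 among them, were not analysed here, and Mepe was dim. Of 7 tested genes 6 were higher, with a median of 0.19, but 4 were higher and 3 lower, with a median of 0.09, without non-targeted replicate 1. Dmp1, a phosphoprotein of osteocyte matrix whose regulatory sequence drives the Cre, differed by 3.28 (limma adjusted p = 0.384). It passed in limma with the replicate number as a block (adjusted p = 0.0153) and with array weights (adjusted p = 0.0259). The weights were very unequal, from 0.36 to 6.05, and whether same-numbered arrays form a block is not given. The acidic matrix protein gene Ibsp was at 13.00, 12.64 and 12.87 against 12.52, 13.03 and 12.82, and differed by 0.05 (95% interval -0.39 to 0.48). Fam20a, a pseudokinase that partners Fam20c, differed by 0.25, and Fam20b, a xylose kinase of proteoglycan synthesis, by 0.19, both overlapping. The matrix protein gene Sparc differed by -0.11 and Ahsg, the gene of the circulating inhibitor fetuin-A, by 0.19.

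Genes of the vitamin K cycle and other Gla proteins, the relatives of Mgp, held 3 higher and 3 lower of 6 tested, and 1 higher without targeted replicate 2 or 3 or without non-targeted replicate 2. The Gla protein gene Pros1, protein S, was at 8.11, 6.67 and 6.55 against 7.15, 8.66 and 7.91 and differed by -0.79 (95% interval -1.95 to 0.36), or by -1.29 once targeted replicate 1 and by -0.42 once non-targeted replicate 2 was left out. Gas6 differed by -0.23, Ucma by 0.04, the vitamin K reductase gene Vkorc1 by -0.35 and the carboxylase gene Ggcx by 0.002, and all overlapped. In the family of Phex the neprilysin gene Mme was at 11.57, 10.63 and 10.92 against 11.23, 11.48 and 11.19, a difference of -0.26, or -0.52 without targeted replicate 1. The endopeptidase genes Ece2, Mmel1 and Ecel1 differed by -0.23, 0.13 and -0.09, and 2 of 5 tested members of this family were higher. Among annexins, calcium-binding proteins found in matrix vesicles, 3 of 7 were higher, Anxa4 differed by -0.46, Anxa6 by -0.27, Anxa1 by -0.24, Anxa7 by 0.28 and Anxa5 by 0.27, and none separated the populations. Without targeted replicate 1 Anxa5 differed by -0.13, and without non-targeted replicate 2 the annexins were 5 higher and 2 lower. The other alkaline phosphatase genes stayed near the dim range, Alppl2 at 6.19 to 6.94 on targeted and 6.05 to 6.50 on non-targeted arrays and Akp3 at 6.48 to 6.97 and 6.41 to 6.78.

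Of 8 tested osteocyte markers 7 were higher with a median of 0.09 (4 were higher without targeted replicate 2). Dmp1 was the 1 whose arrays did not overlap, against 9.07% of all genes tested. Its regulatory sequence drives the Cre that defined the populations, so this separation is not read as a trait of osteocyte markers. Sost, the sclerostin gene, was at 6.95 to 7.36 on targeted and 6.86 to 7.41 on non-targeted arrays, and Mepe was dim at 5.27 to 5.72 and 5.18 to 5.46. Chondrocyte markers, 5 of 9 above the dim cut, had a mean level of 6.18 to 6.42 on targeted and 6.15 to 6.34 on non-targeted arrays.

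The genes whose profile over the 6 arrays lay closest to a member were found among 12306 protein-coding genes, by the root mean square difference of log2 values centred on each gene's mean. Alpl was followed most closely by Lrp4, whose product binds sclerostin, with a root mean square difference of 0.14. Lrp4 was at 9.17, 7.85 and 8.30 on targeted arrays, against 7.38, 7.25 and 6.89 on non-targeted arrays, so it too separated the populations. Slc20a2 was the fourth closest gene to Alpl, at 0.20, with H2bc3, Iars and Cdca3 making up the 5. H2bc3 is a histone gene with near-identical copies, and its probe set may read several of them.

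For Slc20a2 the closest were Bin3, at 0.12, and then Vldlr, H2bc3, Col12a1 and Zkscan8, all highest on targeted replicate 1. For Mgp they were Dusp19, Cox15, Agtr1a, Exosc9 and Tmem19, at 0.15 to 0.19. Agtr1a, the angiotensin receptor gene, was at 6.39, 6.01 and 6.03 on targeted arrays, against 6.26, 7.03 and 7.62 on non-targeted arrays, with non-targeted replicate 1 among the targeted arrays as for Mgp. The likeness rests on 6 arrays and is a description.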

How the data were processed

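Total RNA of sorted CAR cells was hybridised to Affymetrix mogene 1.0 ST arrays, 1 for each of 6 samples. Per the submitters' processing notes, the deposited intensities were the authors' RMA summaries of each probe set, from version 1.4 of Affymetrix Expression Console. Their scale was linear, from 5.34 to 21896, and log2 was taken. The genome build used upstream is not given in the sources used here.

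Of 35556 probe sets, 21789 named 1 gene, 1621 several and 12146 were not listed in the platform's annotation. RefSeq's GRCm38.p6 table matched 21698 by Entrez identifier and supplied current symbols. The brightest probe set over 6 arrays stood for each of 19938 genes, and the 33.3% of genes with the lowest means, up to 6.00, were left out as dim. The other 13292 were fitted with limma 3.58.1 in R 4.3.3 (lmFit, eBayes, no covariate). Two-sided p-values were adjusted over all genes tested (Benjamini-Hochberg, threshold 0.05), and 95% intervals were not adjusted. The fit was checked on simulated data, permutation tests used scipy 1.17.1, and figures matplotlib 3.10.9.

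The members and lists were chosen with earlier results of these data known. Named genes were all members, up to 4 genes of each related list by smallest unadjusted p, and the 5 closest profiles of Alpl, Slc20a2 and Mgp. Enpp6, Smpd1, Smpd2, Fam20b, Ibsp, Ggcx, Anxa5, Sost and Mepe were added after their values were seen. RefSeq's promoter table held 7 of the 10 members. Alternatives were other filters, scalings, variance models, array weights and probe set rules, the replicate number as a block, and leaving out each array.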

Additional observations from a re-analysis of the deposited data

How the results depend on the processing

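Over 17 alternatives, 0 members passed limma's threshold in any, and 0 of all genes passed in 15 of them. With array weights 1 gene passed, Dmp1 (limma adjusted p = 0.0259), and with the replicate number as a fixed replicate block again 1 gene passed, Dmp1 (adjusted p = 0.0153). Unadjusted, 634 genes had p under 0.05, and 407 to 2060 under the alternatives. Adjusted p-values of Alpl were at least 0.147 over its alternatives, those of Mgp at least 0.170 and those of Slc20a2 at least 0.215. Of 134 member values under alternatives, 132 kept their direction. Many of these could not turn, since the filters, variance models, probe set rule and replicate block left the members' differences unchanged. The values that turned were Ank, at -0.046, and Smpd3, at -0.086, both without targeted replicate 1. When each array was left out, the differences ran from 0.81 to 1.37 for Alpl, 0.45 to 1.00 for Slc20a2, 0.29 to 0.59 for Fam20c, -0.05 to 0.39 for Ank, -0.09 to 0.20 for Smpd3, -0.35 to -0.12 for Phex, -0.38 to -0.15 for Slc20a1 and -1.25 to -0.57 for Mgp. Under the stricter filter Fam20c and Slc20a1 were dim and gave no value. The within-array difference of Slc20a2 and Slc20a1 moved by 0.80 to 1.31 when 1 array was left out, and with the replicate block the exact p was 0.25, the smallest that 3 pairs allow. Whether same-numbered arrays share a mouse is not given, so pairing is unknown, and deviations from the group means of same-numbered arrays correlated at -0.256, -0.124 and 0.065. The planned contrast of Alpl with Enpp1 was not run, since Enpp1 was not analysed here. No scaling moved the median of all genes by more than 0.03.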
